A study of Mus musculus with 5 samples.

Results

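The genes described here encode the proteins that bind, stabilise or take apart the microtubules of neurons. They are 10 genes chosen by name from the 55573 genes of a count table: Map1a, Map1b, Map2, Map4, Mapt, the doublecortin genes Dcx and Dclk1, and the stathmin genes Stmn1, Stmn2 and Stmn3. RNA-seq had been carried out on Neuro-2A (N2A) cells, an established mouse neuroblastoma line, after transient transfection with 60 pmol of a commercial non-targeting siRNA (siCtl, 2 libraries, replicates 1 and 3) or of an siRNA against Upf1 (siUpf1, 3 libraries, replicates 1, 2 and 3). UPF1 is an RNA helicase that nonsense-mediated mRNA decay (NMD) needs, and the study lowered it to find the mRNAs of neural cells whose level depends on it. The line and the transfection were shared by both groups, and only the siRNA differed. N2A cells are a tumour line of neural crest type that divides in culture, so they stand for immature neurons at most.

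Microtubules are hollow polymers of tubulin that grow and shrink at their ends and carry transport along axons and dendrites. The classical microtubule-associated proteins (MAPs) bind along the polymer and hold it together, and the doublecortins bind between its protofilaments, whereas the stathmins hold free tubulin dimers and favour disassembly. MAP1B is prominent in growing axons, MAP1A in mature neurons, MAP2 in dendrites and tau, the product of Mapt, in axons. MAP4 is the member of the tau family that non-neuronal and dividing cells use, and doublecortin itself marks migrating young neurons.

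Between 20402205 and 27717594 reads were assigned to genes in each library. Libraries of the same group had a Pearson's r of log2 counts across genes of 0.9924 to 0.9931, and libraries of different groups one of 0.9882 to 0.9889 (genes are not replicates). Upf1 had 5217 and 5243 normalised read counts in the siCtl libraries and 2403, 2496 and 2449 in the siUpf1 libraries. Its level was 46.8% of siCtl (log2 fold change -1.10, SE 0.0507, adjusted p by DESeq2 7.09e-101). A normalised read count is a count divided by the library's DESeq2 size factor. Of 15 genes that mark neurons and sympathetic neuroblasts, 12 had at least 100 reads in every library, among them Tubb3 and Chga, whereas the neurofilament genes Nefl and Nefm had no more than 4 reads in any library. The summed level of this marker list was 65805 to 66180 normalised counts in siCtl and 67059 to 72178 in siUpf1. By DESeq2, 8 of these markers were called higher and 2 lower, and Nefl and Nefm were not tested. Of all tested genes, 22% were called higher and 22.9% lower. Markers of the line itself were thus among the genes that moved, and their part in the values below was not tested. Defining markers of other cell types were at 0 in every library (Slc1a2 for astrocytes, Mog and Mag for oligodendrocytes, Cx3cr1 for microglia, Kdr for endothelium). The summed normalised counts of these lists were 462 to 501 in siCtl and 518 to 548 in siUpf1 for oligodendrocytes (mostly Mbp), 288 to 306 and 223 to 258 for fibroblasts, 214 to 224 and 133 to 140 for endothelium (mostly Pecam1), and under 53 in any library for astrocytes and microglia.

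The siRNA is shown because its seed, bases 2 to 8 of each strand (in capitals), could also pair with other mRNAs. The sense strand was given by the study and the antisense strand is its reverse complement.
siUpf1 sense strand: uCAAGGUUccugauaauua
siUpf1 antisense strand: uAAUUAUCaggaaccuuga
The letters that pair with these seeds in an mRNA are AACCTTG for the sense strand and GATAATT for the antisense strand, and they were searched for on the mRNA strand of the longest annotated 3′ untranslated region (3′UTR) of each gene. Neither was found in the 3′UTR of Map1b, Dclk1, Stmn1, Stmn2 or Stmn3. GATAATT was present in Map1a, Map2 and Mapt, and AACCTTG in Map1a, Map4 and Dcx. Of the 12713 tested protein-coding genes, 8.4% and 10.7% held them. The Map4 site lay in exon 4 of the isoform Map4-206, well before the gene's end at chr9:110083955. The longest coding transcript of Map4 was another isoform, Map4-201, with 19 exons. Gene counts do not say which isoform N2A cells use. The sites of members are printed with their surroundings, the match in capitals, on the strand of the gene in build GRCm38.
Map2, chr1:66442444-66442450: ttctttcttctGATAATTctagagcctgt
Map1a, chr2:121308473-121308479: aaaggattgctGATAATTtagatgatgca
Mapt, chr11:104331326-104331332: gaacacattaaGATAATTcacatgggcaa
Map1a, chr2:121310241-121310247: tatgagaagggAACCTTGtagtcatccca
Map4, chr9:110004492-110004498: gagctatgtgaAACCTTGtctcaaaaaca
Dcx, chrX:143857256-143857262: attaattcagaAACCTTGgggatgtcaat
The median log2 fold change of all genes with GATAATT was 0.01 and of those without it -0.02. For AACCTTG the medians were -0.09 with and -0.02 without. A match is only a run of letters and does not show that the siRNA bound there. The members with a match had 3′UTRs of 2745 to 7709 nt, against a median of 1133 nt over tested genes. The shares of all genes were not matched for this length.

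A pair of other 7-mers, which overlap each other by the letters CAGTAC and were known from earlier results of these data, were searched for in the same way. GCAGTAC was found in Dcx and in 5.6% of genes, and CAGTACA in Dclk1 and in 9.4% of genes. The 3′UTRs of Dcx and Dclk1 had 7709 and 5437 nt, and these shares were likewise not matched for length.
Dcx, chrX:143857227-143857233: gtcactgcttgGCAGTACcatatgcattg
Dclk1, chr3:55536100-55536106: ttgcttctaccCAGTACAaatatcctccc
The median log2 fold change was 0.22 with GCAGTAC and -0.03 without it, and 0.14 with CAGTACA and -0.03 without it. Since these 7-mers were taken up with results of these data known, the medians are not independent evidence. They are a description over all genes with no test. The other 8 members held neither 7-mer.

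Most of the classical neuronal MAP mRNAs rose when Upf1 was knocked down, whereas the ubiquitous Map4 and the growth-cone stathmin Stmn2 fell slightly. By DESeq2's Wald test over the whole table, adjusted over all 15191 genes tested, 6 of the 10 members were called higher (Map1a, Map1b, Map2, Mapt, Dclk1, Stmn3), 2 lower (Map4, Stmn2) and 2 not called (Dcx, Stmn1). The calls of Map4, Stmn2 and Dclk1 did not hold under every alternative analysis. Of all tested genes, 22% were called higher, 22.9% lower and 44.9% in either direction, so calls as such were common in these libraries. The median log2 fold change of the members was 0.37, and that of all tested genes was -0.00239, with a median absolute change of 0.28. In the siUpf1 libraries taken one at a time against the siCtl mean, the members' median was 0.33, 0.40 and 0.36. All 10 members had groups that did not overlap, 8 of them with siUpf1 higher, but this held for 69.4% of all tested genes in either direction, for 34.3% with siUpf1 higher and for 35.2% with siUpf1 lower. By edgeR's quasi-likelihood test 7 members were called higher and 2 lower, where 27.5% and 27.1% of all genes were. The study named Map1b and Mapt as NMD targets, a set it defined from these libraries together with RNA bound by phosphorylated UPF1. Their direction here is therefore not independent evidence. The RT-qPCR it reported for both mRNAs compared cortex of Fmr1-knockout and wild-type mice, not this knockdown. In whole-culture RNA, a shift in the share of cells that use a gene and a shift in the RNA per cell cannot be told apart.

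**Figure D1:**
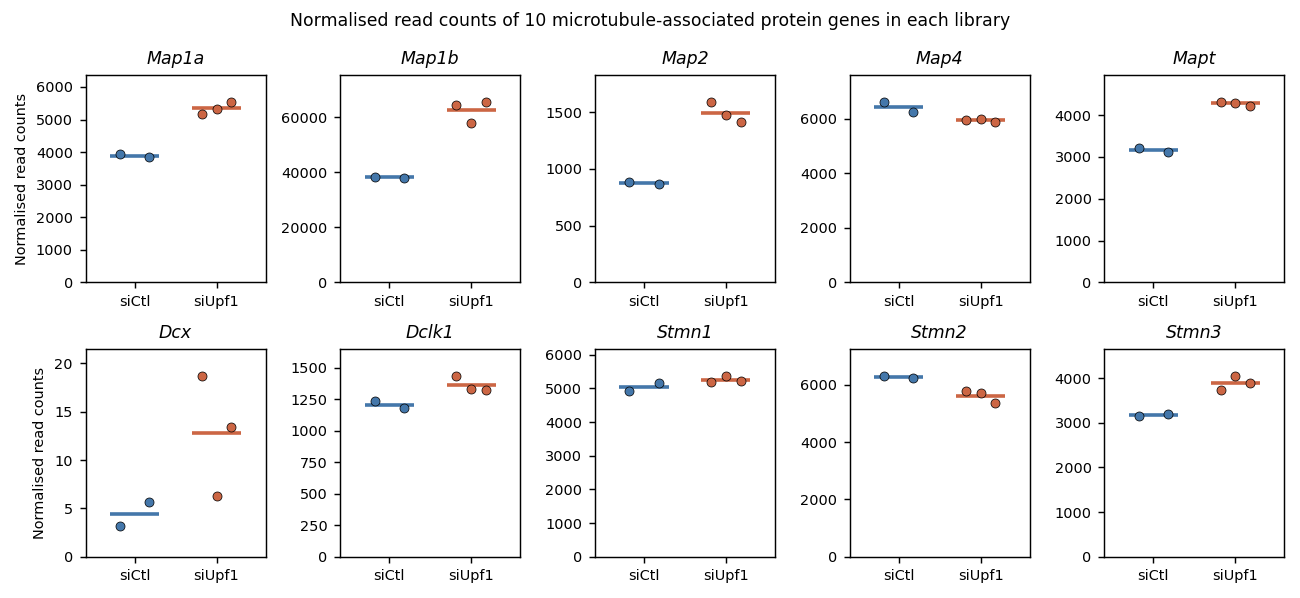
Normalised read counts (vertical axes, each starting at 0) of the 10 genes in each siCtl library (blue, n = 2) and each siUpf1 library (orange, n = 3), with horizontal lines at the group means. Points of Map1b, Map2, Map1a and Mapt are well apart between the groups, those of Stmn1 nearly touch, and Dcx lies at a few counts per library.

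Map1b (ENSMUSG00000052727.6, minus strand, chr13:99421446-99516540), whose product links microtubules and actin in growing axons, was the most abundant member by reads. It had 38327 and 38069 normalised counts in the siCtl libraries and 64464, 57938 and 65602 in the siUpf1 libraries. Every siUpf1 library lay far above both siCtl libraries, and replicate 2 was the lowest of the siUpf1 group. The means were 38198 ± 183 (SD, n = 2) and 62668 ± 4136 (SD, n = 3), a 1.64-fold level, and the log2 fold change was 0.71 (SE 0.0488, 95% interval 0.62 to 0.81, DESeq2 adjusted p = 1.07e-46). This placed Map1b at percentile 91.6 of the changes of all tested genes.

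Map1a (ENSMUSG00000027254.13, plus strand, chr2:121289600-121310832) encodes the related MAP of mature neurons. Its normalised counts were 3933 and 3848 in siCtl and 5176, 5321 and 5549 in siUpf1. The siUpf1 libraries were all higher, with a log2 fold change of 0.46 (SE 0.0502, interval 0.36 to 0.56, DESeq2 adjusted p = 1.05e-18) and a percentile of 83.3. Exons of Map1a share 272 bases with Ppip5k1 on the opposite strand, which had 1054 to 1582 reads per library, and counting was by strand.

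The third MAP1 gene, Map1s, was outside the 10 members and is expressed in many tissues. It had 3064 and 3156 normalised counts in siCtl and 2638, 2759 and 2758 in siUpf1, a change of -0.19 on the log2 scale (SE 0.0551, DESeq2 adjusted p = 0.00135). The 3 genes of the family therefore did not move in 1 direction. The call of Map1s was lost without siCtl replicate 3 (DESeq2 adjusted p = 0.0779).

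Map2 (ENSMUSG00000015222.17, plus strand, chr1:66175273-66442583), the dendritic MAP, showed the largest fold change among the members with a call. Its normalised counts were 885 and 871 in siCtl and 1592, 1471 and 1413 in siUpf1. No siUpf1 library came near the siCtl values, and the means were 878 ± 9.85 (SD, n = 2) and 1492 ± 91.4 (SD, n = 3). The log2 fold change was 0.77 (SE 0.0800, interval 0.61 to 0.92, DESeq2 adjusted p = 2.11e-20), at percentile 92.6. Its interval overlapped that of Map1b, so the order of these 2 changes is not resolved.

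Mapt (ENSMUSG00000018411.17, plus strand, chr11:104231390-104332090) encodes tau, which stabilises axonal microtubules and aggregates in several dementias. It had 3201 and 3111 normalised counts in siCtl and 4319, 4289 and 4227 in siUpf1. The siUpf1 libraries lay close together and above siCtl, at 4278 ± 46.7 (SD, n = 3) against 3156 ± 63.6 (SD, n = 2). The log2 fold change was 0.44 (SE 0.0499, interval 0.34 to 0.54, DESeq2 adjusted p = 2.49e-17), at percentile 82.3. The intervals of Mapt and Map1a overlapped almost in full, and that of Mapt ended below the start of that of Map1b.

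Map4 (ENSMUSG00000032479.15, plus strand, chr9:109931460-110083955), the MAP of dividing and non-neuronal cells, moved the other way. Its normalised counts were 6628 and 6251 in siCtl and 5955, 5997 and 5898 in siUpf1. All siUpf1 libraries were lower, but the gap to siCtl replicate 3 was smaller than the gap between the siCtl replicates. Map4 fell by 0.11 on the log2 scale (SE 0.0460, interval -0.20 to -0.02, DESeq2 adjusted p = 0.0316). The call was lost in 7 of 11 alternative analyses, including without siCtl replicate 1 (adjusted p = 0.395) and without siUpf1 replicate 1 (0.0609), 2 (0.0537) or 3 (0.121), so it rests on the exact set of libraries.

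For Map1b and Mapt the study used RT-qPCR primers, which are shown because they bear on the part of each mRNA that was assayed. No antisense primer for Mapt mRNA was placed here, so the assayed stretch of Mapt is not bounded. The Map1b pair lay in exons 5 and 6 of the 7 exons of Map1b-201, and the Mapt sense primers lay in exon 6 of the 10 exons of Mapt-204, in both genes within coding sequence. The primers for precursor RNA named antisense matched no annotated transcript of their gene.
Map1b sense, chr13:99429305-99429324, minus strand: aaagaccaccaccactcctg
Map1b antisense, chr13:99427365-99427384: tgttgctgtggttgggaata
Mapt sense, chr11:104310474-104310495, plus strand: gaatgtcaggtcgaagattggc
Mapt precursor sense, chr11:104310404-104310423, plus strand: ctccccctaagtcaccatca
The Map1b sense primer served for mRNA and precursor alike and was found in 1 of 6 annotated transcripts. The Mapt sense primers for mRNA and for precursor were each found in 5 of 12 transcripts. The counts analysed here cover all exons of a gene and do not separate these isoforms.

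**Figure D2:**
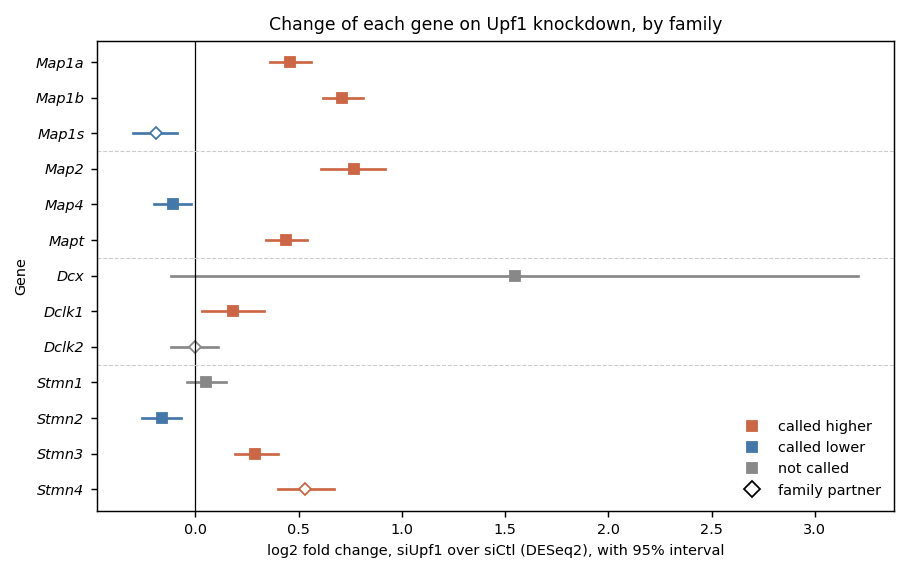
Log2 fold change of siUpf1 over siCtl (horizontal axis, DESeq2) with its 95% interval for the 10 genes (filled squares) and 3 family partners (open diamonds), in 4 blocks by family. Map1a, Map1b, Map2, Mapt, Stmn3 and Stmn4 lie clearly to the right of 0, Map4, Stmn2 and Map1s slightly to the left, and the interval of Dcx spans -0.12 to 3.21.

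The doublecortin genes gave little signal. Dcx (ENSMUSG00000031285.14, minus strand, chrX:143855842-143933311), the microtubule-bundling protein of migrating neurons, had only 3 and 6 raw reads in the siCtl libraries and 21, 5 and 15 in the siUpf1 libraries. The siUpf1 values ranged from just above siCtl to several times higher. After normalisation these were 3.14 and 5.66 in siCtl and 18.7, 6.28 and 13.4 in siUpf1. The log2 fold change of 1.55 (SE 0.850, interval -0.12 to 3.21) was not called by DESeq2 (adjusted p = 0.130) and was called by edgeR's quasi-likelihood test (log2 fold change 1.56, adjusted p = 0.0273), so at this depth Dcx is undecided.

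Dclk1 (ENSMUSG00000027797.15, plus strand, chr3:55242364-55539068) joins doublecortin domains to a kinase. Its normalised counts were 1236 and 1176 in siCtl and 1434, 1333 and 1326 in siUpf1. All siUpf1 libraries were higher, by a margin close to the spread within each group. The log2 fold change was 0.18 (SE 0.0752, interval 0.03 to 0.33, DESeq2 adjusted p = 0.0395). The call was lost when any 1 of the 5 libraries was left out (adjusted p 0.0633 to 0.328), and 8 of 11 alternatives did not keep it. Its paralog Dclk2, not a member, had 2088 and 2092 normalised counts in siCtl and 2023, 2101 and 2126 in siUpf1, with a DESeq2 interval of -0.12 to 0.11.

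Of the stathmins, the neuronal Stmn3 and Stmn4 rose, Stmn2 fell and Stmn1 was not called. Stmn3 (ENSMUSG00000027581.12, minus strand, chr2:181306459-181314500), also named SCLIP, had 3141 and 3199 normalised counts in siCtl and 3729, 4048 and 3882 in siUpf1. The siUpf1 libraries were all above siCtl, and the log2 fold change was 0.29 (SE 0.0542, interval 0.19 to 0.40, DESeq2 adjusted p = 4.07e-07). The family partner Stmn4, which is not a member, went from 1157 and 1150 in siCtl to 1708, 1657 and 1640 in siUpf1, a change of 0.53 on the log2 scale (SE 0.0695, DESeq2 adjusted p = 2.16e-13).

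Stmn2 (ENSMUSG00000027500.10, plus strand, chr3:8509360-8561606), also named SCG10, encodes the membrane-bound stathmin of growth cones. Its normalised counts were 6308 and 6254 in siCtl and 5776, 5711 and 5361 in siUpf1. The siUpf1 libraries were all lower, replicate 3 the most, and Stmn2 fell by 0.16 on the log2 scale (SE 0.0484, interval -0.26 to -0.07, DESeq2 adjusted p = 0.00258). Without siCtl replicate 1 the call was lost (adjusted p = 0.0633).

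Stmn1 (ENSMUSG00000028832.11, plus strand, chr4:134468320-134473843), the cytosolic stathmin of proliferating cells, had 4934 and 5174 normalised counts in siCtl and 5179, 5370 and 5207 in siUpf1. The highest siCtl and the lowest siUpf1 library nearly met. Its log2 fold change was 0.05 with an interval of -0.04 to 0.15 (DESeq2 adjusted p = 0.377), so a change above 0.15 in either direction lies outside the interval.

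Levels of different genes can be compared only per length, here as normalised counts per kb of all annotated exons. In siCtl the order was Stmn3 at 2790 ± 36.5, Stmn1 at 2630 ± 88.2, Map1b at 2410 ± 11.5 and Stmn2 at 1120 ± 6.85 (SD, n = 2), followed by Map4 at 425 ± 17.6, Mapt at 419 ± 8.44 and Map1a at 320 ± 4.92. Dclk1 at 78.9 ± 2.75 and Map2 at 53.4 ± 0.599 were far lower, and Dcx at 0.348 ± 0.141 was near the floor. Map4 and Mapt were not separated, since their siCtl values per kb were 438 and 413 against 425 and 413. The other neighbours in this order did not overlap between libraries.

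In siUpf1 the order of levels per kb had changed. Map1b led at 3950 ± 261 (SD, n = 3), ahead of Stmn3 at 3420 ± 140, Stmn1 at 2730 ± 53.9 and Stmn2 at 1000 ± 39.9. Mapt, at 568 ± 6.21, and Map1a, at 440 ± 15.4, were then above Map4, at 393 ± 3.29. Map2, at 90.7 ± 5.55, and Dclk1, at 89.2 ± 3.93, overlapped between libraries. The order rests on the length used, because isoforms share exons unequally. Per kb of the longest coding transcript, Stmn1 was first in siCtl at 4770 ± 160 and Stmn3, at 2790 ± 36.5, stood below Map1b and Stmn2, and 6 of the 10 genes kept their place.

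**Figure D3:**
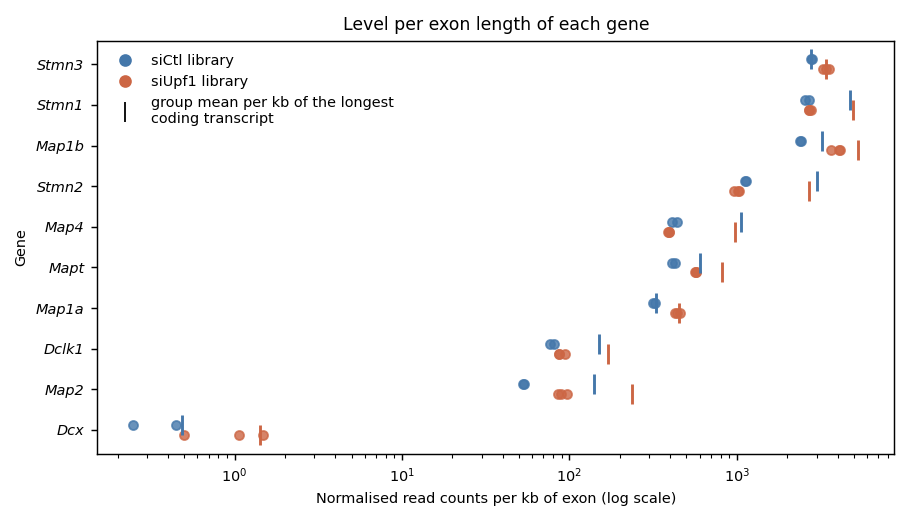
Normalised read counts per kb of annotated exon (horizontal log axis) for the 10 genes in order of their siCtl level, with 1 point per library (siCtl blue, siUpf1 orange) and ticks at the group means per kb of the longest coding transcript. Stmn3, Stmn1 and Map1b lie at 2400 or more in every library, Map2 and Dclk1 below 100, and Dcx below 1.5.

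Within each family the balance between genes shifted, which is given as a description, since shares were not tested. In the MAP1 family, Map1b held 77.4% and 77.1% of the summed level per kb in siCtl and 84.3%, 82.3% and 83.8% in siUpf1. Map1s went from a mean of 12.5% to 7.23%. The share of Map1a went from 10.2% to 9.30% although its level rose, since Map1b rose more.

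In the tau family Map4 and Mapt held nearly equal shares in siCtl, and Mapt held the larger share in every siUpf1 library. Map4 held 47.8% and 47.0% of the summed level per kb of Map2, Map4 and Mapt in siCtl, and 37.0%, 37.5% and 37.6% in siUpf1. Mapt held 46.4% and 47.0% in siCtl and 53.9%, 54.0% and 54.1% in siUpf1. Per kb of the longest coding transcript Map4 stayed ahead in both groups, at 58.8% and 48.1% against 33.4% and 40.1% for Mapt. Which gene led thus depended on the length, while the direction of each shift did not.

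Shifts among doublecortins and stathmins were smaller. Dclk1 went from 28.4% to 31.0% and Dclk2 from 71.4% to 68.6%, with Dcx under 0.6% in every library. Stmn2 went from 15.7% to 12.5% and Stmn1 from 36.8% to 34.0%, while Stmn3 went from 39.1% to 42.6% and Stmn4 from 8.43% to 10.9%. Shares within a family add up to a fixed whole, so these shifts are not separate observations.

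**Figure D4:**
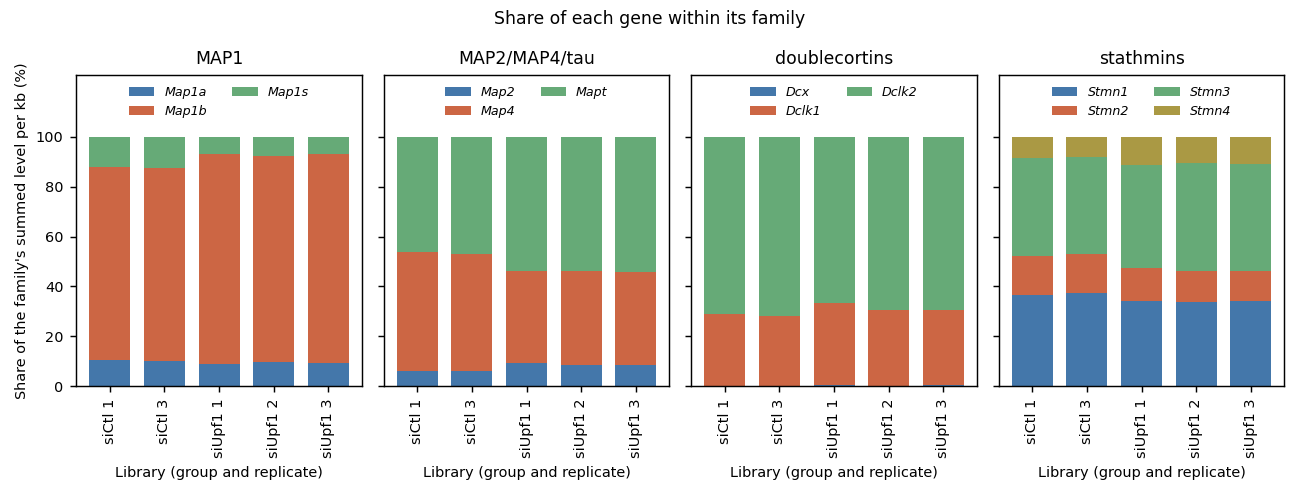
Share of each gene (stacked bars, percent) in the summed level per kb of annotated exon of its family, for 4 families and 5 libraries (group and replicate on the horizontal axis). Map1b takes more of the MAP1 family and Mapt more of the tau family in all 3 siUpf1 libraries than in both siCtl libraries, and Dcx is too small to be seen.

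Gene structure was read from GENCODE M21 in build GRCm38. NMD classically acts on mRNAs with an exon junction well past the stop codon, and upstream reading frames and long 3′UTRs are other known features. None of the 10 members had an annotated NMD transcript, against 28.4% of tested protein-coding genes. None had a junction more than 50 nt past the stop, against 0.5%. Junctions were sought only in the longest complete coding transcript of each gene. Transcripts annotated as NMD were outside that search, so few such junctions could be found. An ATG in the 5′UTR of the chosen transcript was found in Map2 (5), Stmn2 (3), Dclk1 (2), Dcx (2) and Stmn1 (1) but not in Map1a, Map1b, Map4, Mapt or Stmn3, and in 53.1% of genes.

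The longest annotated 3′UTRs of the MAP and doublecortin genes exceeded the median of 1133 nt over tested genes. They were 4360 nt in Map1b, 2745 in Map1a, 3576 in Map2, 2986 in Map4, 3903 in Mapt, 5437 in Dclk1 and 7709 in Dcx. The stathmin 3′UTRs had 440 nt in Stmn1, 1281 in Stmn2 and 305 in Stmn3. Annotated 3′UTRs within a gene ranged widely, from 181 to 3576 nt over 7 transcripts of Map2 for example, and gene counts do not say which one N2A cells use.

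Other genes of the microtubule system moved in both directions. Of 90 such genes in 8 lists by function, 85 were tested, and 32 were called higher and 22 lower by DESeq2, with a median log2 fold change of 0.04. This is 37.6% and 25.9% of those tested, beside 22% and 22.9% of all genes. The difference between the members and these genes was not tested.

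Among 15 other structural MAPs, 4 rose and 5 fell. Mtus2 (log2 fold change 0.84) and Map9 (0.47) rose, whereas Map7d2 (-0.58), Map7d1 (-0.35) and Camsap3 (-0.36), which caps minus ends, fell. Map6, the cold-stability MAP, was not called (0.11, DESeq2 adjusted p = 0.0974).

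Of 5 other doublecortin and stathmin genes, Stmn4 (0.53), Dcdc2a (0.77) and Dclk3 (1.00) rose, and Dclk2 (0.00) and Dcdc2b (-0.07) were not called. Dclk3 had only 19 to 67 reads per library, and its change was 0.62 without siCtl replicate 3. Leaving out that library ended the calls of Dclk3 (DESeq2 adjusted p = 0.379) and Dcdc2a (0.171). The call of Dclk3 was also lost without siUpf1 replicate 2 (0.0825) or 3 (0.190).

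The collapsin response mediators, which bind tubulin dimers in growing axons, divided evenly. Dpysl5 (0.56) and Dpysl3 (0.25) rose, and Dpysl2 (-0.48) and Crmp1 (-0.28) fell, each called among 4 tested.

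Of 16 proteins that track or anchor growing plus ends, 8 rose and 2 fell, with a median of 0.22. Nav3 (0.67), Slain2 (0.62), Macf1 (0.53), Clasp2 (0.47) and Mapre1 (0.31), which encodes the core plus-end tracker EB1, rose, whereas Mapre2 (-0.32) fell. Among 9 severing and depolymerising genes, 3 rose and 2 fell. Fign (1.06), Katnal1 (0.39) and Fignl1 (0.31) rose, and the katanin genes Katna1 (-0.58) and Katnal2 (-0.51) fell.

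Kinases and phosphatases that act on MAPs were mixed, with 6 higher and 4 lower of 17. The tau kinase genes Gsk3b (0.09) and Cdk5 (0.12) were not called. Cdk5r1 (0.73), which encodes the p35 activator of CDK5, and Ppp2r2b (0.59), a neuronal PP2A subunit, rose, whereas Fyn (-0.28) and Camk2b (-1.18) fell. Camk2b had 46 to 159 reads per library, and its paralog Camk2a (0.29) was called higher.

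Enzymes that modify tubulin numbered 15, of which 5 rose and 5 fell. Ttl (0.75), which adds the terminal tyrosine of alpha-tubulin, and Vash1 (0.95), which removes it, both rose, and Vash2 (-0.27) fell. The deacetylase gene Sirt2 (-0.65) and the polyglutamylase gene Ttll5 (-0.37) also fell, whereas another deacetylase gene, Hdac6 (0.31), was called higher.

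The last list held 4 regulators known to bind or control mRNAs of members. Elavl4, encoding the neuronal RNA-binding protein HuD that binds Mapt mRNA, rose from 1696 and 1823 normalised counts in siCtl to 4184, 3572 and 3788 in siUpf1 (log2 fold change 1.13, DESeq2 adjusted p = 1.04e-57). Fmr1, encoding FMRP, which binds Map1b mRNA, went from 1254 and 1321 to 925, 783 and 774 (log2 fold change -0.64, DESeq2 adjusted p = 3.13e-11). Rest, a repressor of neuronal genes, fell by 0.28 on the log2 scale, a call lost without siCtl replicate 1 (DESeq2 adjusted p = 0.0907), and Tardbp (-0.02) was not called. The part of these genes in the members' values was not tested.

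**Figure D5:**
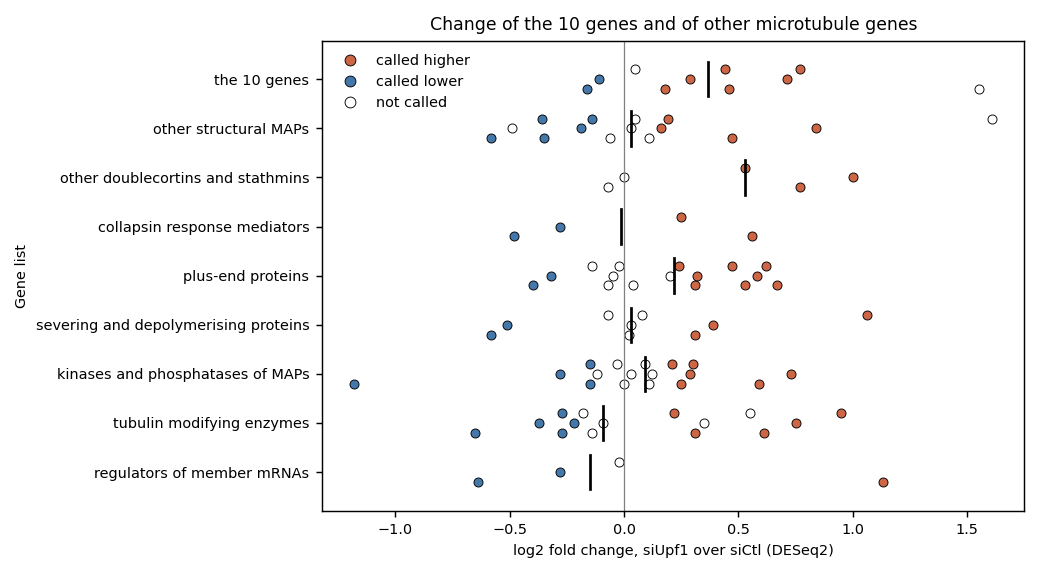
Log2 fold change of siUpf1 over siCtl (horizontal axis, DESeq2) for the 10 genes and for 8 lists of other microtubule genes, 1 point per tested gene, orange where called higher, blue where called lower and open where not called, with black lines at list medians. Every list holds points on both sides of 0, and the medians lie between -0.15 and 0.53.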

How the data were processed

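Polyadenylated RNA of 5 N2A libraries was sequenced after strand-specific preparation. The authors filtered reads with fastp, mapped them with STAR to GRCm38.p6 and counted them over exons by strand with featureCounts, and they deposited raw read counts per gene, not normalised. The annotation was GENCODE M22 or M25. PCR duplicates cannot be seen in such a table.

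From these counts, DESeq2 1.42.0 (R 4.3.3) compared siUpf1 with siCtl by its Wald test (two-sided, group only, Benjamini-Hochberg over the whole table, called at an adjusted p under 0.05), as the study's methods did. Intervals are 95% normal intervals of the log2 fold change. The alternatives were edgeR 4.0.16 (quasi-likelihood), TMM or total-count scaling, a minimum of 10 counts in 2 libraries, no filter, a block for the replicate number, and leaving out each library. Scripts were tested on simulated data. The study describes independent experiments for blots of these cells, but the labels do not tie each library to a culture, so p-values measure the spread between these samples, which may be technical in part. The members and lists were chosen with earlier results of these data known. All members, Upf1 and any gene of the lists could be named. Structure and sites came from GENCODE M21, in which 99.8% of gene identifiers were found. A 3′UTR was taken from the complete coding transcript with the longest one.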

Additional observations from a re-analysis of the deposited data

How the results depend on the processing

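Over 103 alternative values of the members, 85 kept direction and side of the threshold, 17 lost the call, 1 gained it (Dcx, by edgeR) and 0 changed sign. The calls of Map1a, Map1b, Map2, Mapt and Stmn3 held under every alternative run, with log2 fold changes of 0.43 to 0.48, 0.68 to 0.77, 0.72 to 0.81, 0.42 to 0.46 and 0.26 to 0.32. The number of members called lower was 2, and became 1 under total-count scaling and with no filter, and 0 to 2 with a library left out. Members called higher were 5 to 7. Replicate numbers did not pair the libraries (correlation of deviations -0.0867 for number 1 and -0.0758 for number 3 over 11898 genes). With a block for replicate number, 1957 genes were called higher and 1962 lower, no member was called lower (0; Map4 adjusted p = 0.330, Stmn2 0.128), 5 members were called higher, without Dclk1 (0.261), and 22 other microtubule genes were called higher and 12 lower (32 and 22 without it). The block also ended other calls, among them those of Map1s (adjusted p = 0.112), Dclk3 (0.218), Dcdc2a (0.112), Rest (0.142), Katnal2 (0.0634) and Vash2 (0.0841). The cause of these differences was not tested. Log2 fold changes near 0 changed sign for Dclk2 (-0.02 to 0.02 with a library left out, 0.02 under total-count scaling, 0.00 by edgeR), Tardbp (-0.05 to 0.00, and 0.00 under total-count scaling and the block) and Dcdc2b (-0.17 to 0.07 with a library left out), none of them called. Per kb of the longest coding transcript, 6 genes kept their place in the siCtl order, and the siUpf1 minus siCtl difference in family share was 8.77 points for Map1b, -10.6 for Map4 and -4.49 for Stmn2. DESeq2 gave Dcx no adjusted p under 7 alternatives. Depth limits Dcx most, at 3 to 21 reads per library.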
